A study of Nannochloropsis oceanica with 44 samples.

Results

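Among the transcripts of the alga Nannochloropsis oceanica that differed between nitrogen deprivation and nitrogen resupply, a small set reached its highest level only at the last time of resupply, 72 h. Members were chosen by their values: a gene belongs to the set where its log2 value at 72 h of resupply lies above the highest of the other 9 time points by more than 1, which is 2-fold. The rule was met by 32 of the 2489 genes (1.29%) in the authors' 4 cluster tables. The height of the peak at 72 h is therefore the way the genes were found, and it is given as a description.

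Nannochloropsis oceanica is a marine microalga that stops dividing, dismantles part of its photosynthetic machinery and stores oil when nitrogen runs out. When nitrogen returns, such cells are known to rebuild their protein synthesis and chloroplasts, draw on the stored oil and resume division. Transcripts that are high early in this recovery and transcripts that are high late in it therefore belong to different phases of the return to growth. Which functions the 32 genes serve is not known here, because the tables carry gene identifiers without names and 0 of the 32 matched the reference gene table.

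All cultures were wild type of the strain CCMP1779, grown in shaken F/2 medium under continuous light. The deprivation groups (written N-) had been washed into medium free of nitrogen and were taken after 6, 12, 24, 48 or 72 h. The resupply groups (written NR) had first spent 72 h without nitrogen, were then moved to F/2 medium with nitrogen, and were taken at the same 5 hours. The labels describe 4 RNA-seq libraries for each group, from 2 biological replicates by the extraction protocol, and a 0 h group that was not analysed here. For 1 of the 4 libraries of 72 h NR the title leaves out NR, and its time point label puts it in that group. The tables give 1 log2-scale value per gene and time point, so no value has an error or an n, no difference has a p-value, and whether the libraries of 72 h NR all show a given peak cannot be said. Read depth is unknown, and the log2 scale was inferred from the values, which run from 1.46 to 19.5. In such bulk samples a higher level in every cell and a larger share of cells that express a gene cannot be told apart. A gene is called higher or lower below where its values at 2 time points differ by more than 1.

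**Figure D1:**
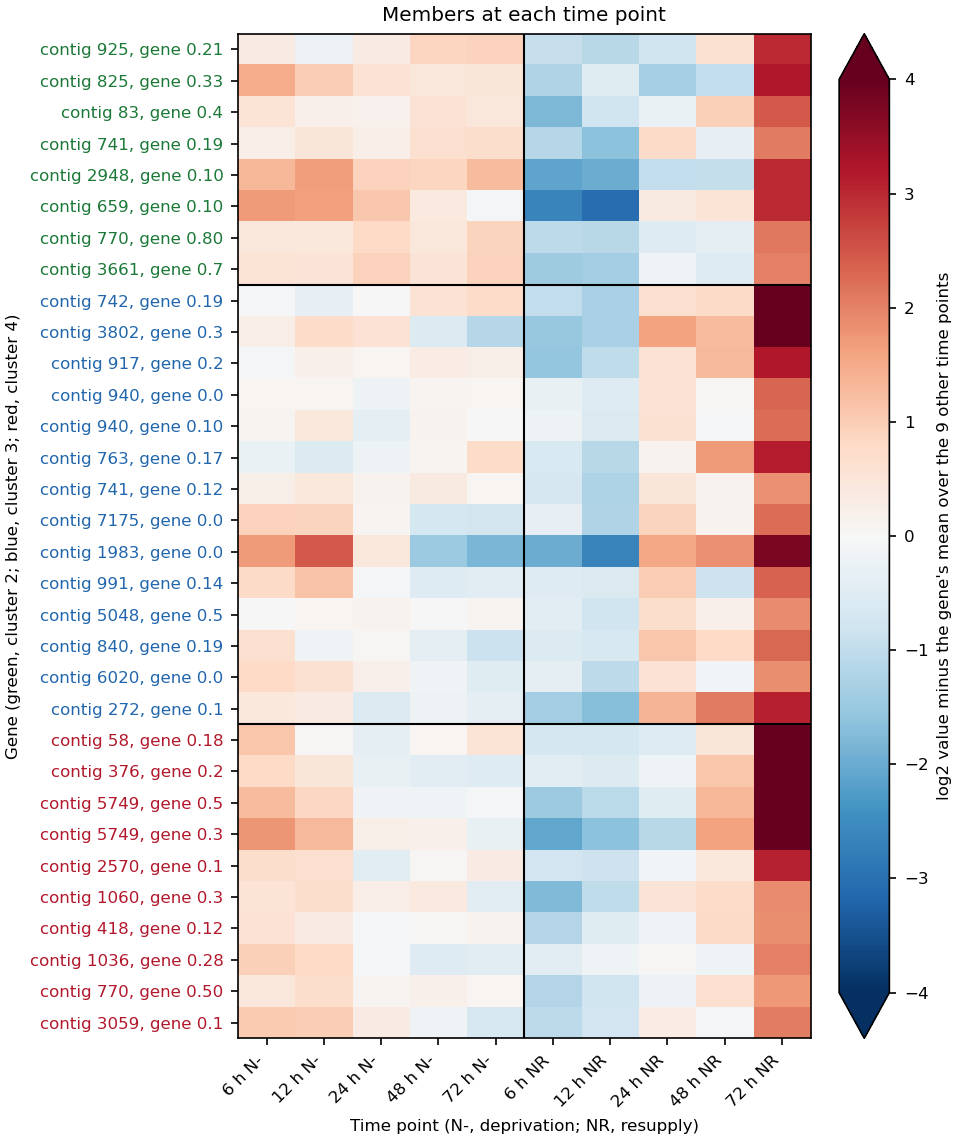
Each row is 1 of the 32 genes and each column 1 of the 10 time points, with the colour giving the log2 value minus that gene's own mean over the 9 time points other than 72 h NR (colours end at 4 on either side). Every row is red at 72 h NR by the rule, and 28 of the 32 rows have their lowest value at 6 h or 12 h NR, beside 57.3% of all genes. That share includes the genes of a cluster that holds 0 members.

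The size of the peak varied widely between members. The margin, meaning 72 h NR minus the next highest time point, had a median of 1.32 (quartiles over genes 1.17 and 1.95), or 2.50-fold, and it exceeded 2 in 8 genes. Measured against each gene's own mean over the 9 other time points, 72 h NR lay 2.40 higher in the median gene and between 1.73 and 6.23 higher over the set.

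The widest margin, 5.13, belonged to maker-nanno_58-augustus-gene-0.18 of cluster 4, on contig 58. It stood at 7.28, 6.25, 5.83, 6.28 and 6.72 at the 5 times of deprivation, and at 5.49, 5.49, 5.66 and 6.67 at 6, 12, 24 and 48 h NR. At 72 h NR it reached 12.41, which is 35.1-fold above its next highest value and 53.5-fold above 48 h NR. Its 9 other values lay within 1.79 of each other, a narrow span beside its last step.

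Second was snap_masked-nanno_742-abinit-gene-0.19 of cluster 3, on contig 742. Its deprivation values were 6.58, 6.32, 6.64, 7.23 and 7.37, and those at the first 4 times of resupply were 5.67, 5.34, 7.29 and 7.43. It went on to 11.27 at 72 h NR, 14.4-fold above 48 h NR. After a low at 12 h NR this gene was already back within its deprivation range at 24 h NR, and the peak came on top of that level.

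The next gene by margin, augustus_masked-nanno_376-abinit-gene-0.2 of cluster 4, was weakly expressed. Its values were 4.44, 4.12, 3.34, 3.19 and 3.12 in deprivation, then 3.19, 3.08, 3.48, 4.75 and 7.80 in resupply. Here the last 2 steps were both upward past 2-fold, so 48 h NR already exceeded every deprivation value.

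In cluster 3, maker-nanno_3802-snap-gene-0.3 had the second widest margin, 2.38. It stood at 4.98, 5.46, 5.31, 4.19 and 3.60 in deprivation and at 3.22, 3.44, 6.33, 6.00 and 8.72 in resupply. This gene had 2 separate upward steps, 7.42-fold from 12 h to 24 h NR and 6.59-fold from 48 h to 72 h NR.

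Of cluster 2, augustus_masked-nanno_925-abinit-gene-0.21 came first with a margin of 2.08. Its values were 4.10, 3.53, 4.07, 4.61 and 4.68 in deprivation, then 2.84, 2.65, 2.97, 4.38 and 6.76 in resupply. The second of cluster 2, augustus_masked-nanno_825-abinit-gene-0.33, was at 7.21, 6.71, 6.31, 6.17 and 6.21 in deprivation and lower, at 4.51, 5.22, 4.41 and 4.75, for the first 48 h of resupply. Its 72 h NR value was 8.91, which exceeded that at 48 h NR by 17.9-fold.

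At the other end, the members with the smallest margins were augustus_masked-nanno_272-abinit-gene-0.1 (1.02) and augustus_masked-nanno_3059-abinit-gene-0.1 (1.01). The genes just outside were augustus_masked-nanno_738-abinit-gene-0.6, with 9.29 at 72 h NR and a margin of 0.93, and snap_masked-nanno_445-abinit-gene-0.6, with 5.42 and a margin of 0.91. In all, 22 genes had margins between 0.5 and 1, and 108 genes (4.34% of all) had their highest value at 72 h NR by any amount. Values thus continue across the threshold.

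**Figure D2:**
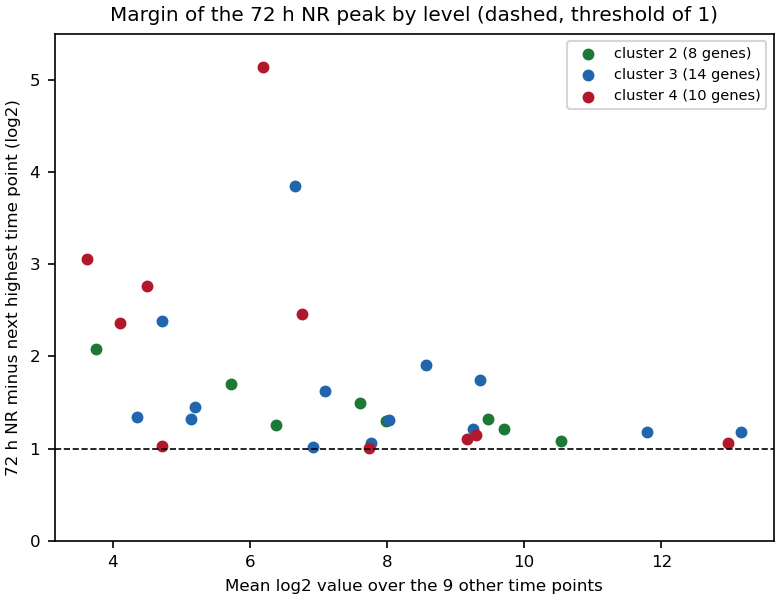
Each point is 1 member, with its mean log2 value over the 9 time points other than 72 h NR on the horizontal axis and its margin in log2 units on the vertical axis, coloured by cluster. The 8 genes with a margin over 2 all lie at means under 7, while the genes with means above 10 have margins under 1.5.

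Weakly expressed members tended to have wider margins, although the 2 widest, on contigs 58 and 742, were not among the weakest. In 9 members the mean over all 10 time points was under 6, beside 245 of all genes (9.84%), and these 9 had a median margin of 2.08 against 1.26 for the other members. The median member had a mean of 7.59, and the median of all genes was 9.27. Levels at 72 h NR itself ran from 6.18 to 15.46 with a median of 10.52, beside 9.59 for all genes. The highest was maker-nanno_840-augustus-gene-0.19 of cluster 3, which had been at 12.31 to 13.79 in deprivation and at 14.28 at 24 h NR. Weakly expressed genes rest on fewer reads, and the part of counting error in their margins was not tested.

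Single-time peaks of this size were rare at most other time points. The same rule applied to each column found 213 genes at 24 h NR (8.56% of all), 22 at 6 h NR (0.884%), 6 at 12 h NR (0.241%) and 5 at 48 h NR (0.201%). During deprivation it found 1 gene at 24 h (0.0402%), 1 at 72 h (0.0402%) and 0 at 6, 12 and 48 h. Margins at 72 h NR reached further than at any other time point, with 5.13 as the highest against 1.76 at 48 h NR and 1.75 at 24 h NR. After the median of all 2489 genes was subtracted from each column, which is called centring below, the counts became 20 at 72 h NR, 45 at 24 h NR, 31 at 12 h NR, 14 at 6 h NR and 0 at 48 h NR. All 20 centred genes belong to the 32, and the 12 that dropped out had margins of at most 1.35.

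**Figure D3:**
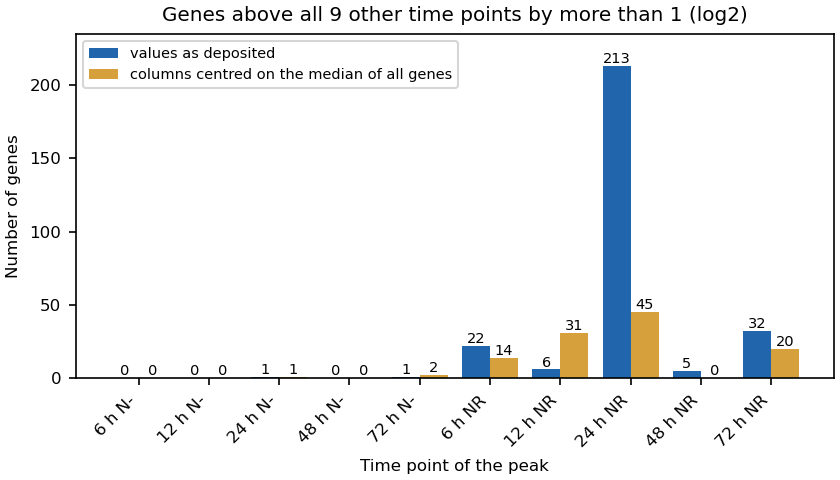
Bars give the number of the 2489 genes whose value at a time point exceeds all 9 others by more than 1 on the log2 scale, for values as deposited (blue) and for columns centred on the median of all genes (yellow). The 72 h NR bars stand at 32 and 20, and the 24 h NR bars at 213 and 45.

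The members came from 3 of the authors' 4 clusters, which had been formed from these same values. Cluster 3 held 14 of them (1.61% of its 872 genes), cluster 4 held 10 (2.39% of 418) and cluster 2 held 8 (2.00% of 401). Cluster 1, whose genes are high in the first hours of resupply, held 0 of its 798 genes, and its best gene missed the next highest time point by 0.22. The members were loose fits to their clusters. Across the 10 time points, the Pearson correlation of a member with the mean profile of its own cluster had a median of 0.67 and ranged from 0.32 for the contig 58 gene to 0.89, beside a median of 0.95 over all genes. A correlation under 0.8 was found for 29 of the 32 members and for 307 of all genes (12.3%). Each member was still most like its own cluster among the 4. These correlations include the peak itself, share the same libraries and carry no test.

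**Figure D4:**
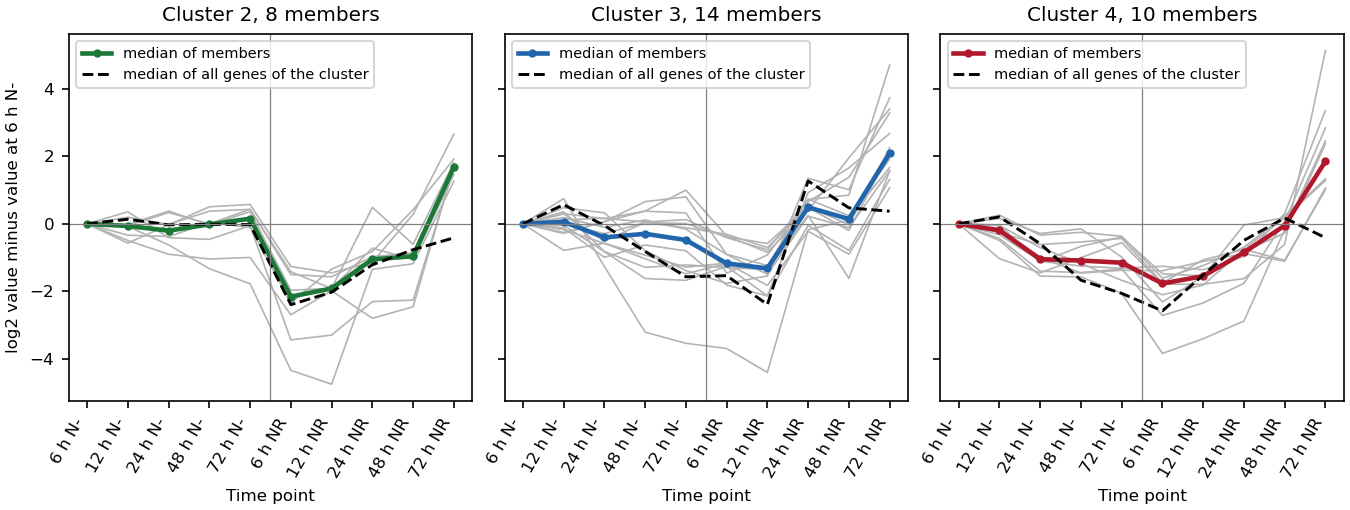
Grey lines are the members of each cluster over the 10 time points, as log2 value minus the value at 6 h N-, with their median in colour and the median of all genes of that cluster dashed. The coloured line ends between 1.68 and 2.09 in the 3 panels, and the dashed line ends between -0.41 and 0.37.

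Members of cluster 3 had a smaller step at 24 h NR than their cluster. The rule holds 24 h NR more than 1 below 72 h NR, a difference found in 1.95% of the cluster's genes. It therefore favours a small step at 24 h NR, and this is no separate finding. From 12 h to 24 h NR all 14 members were higher, as were all 872 genes of the cluster (100%). The median was 1.66 for the members and 3.78 for the cluster, and 13 of the 14 members lay below the latter. The exception was augustus_masked-nanno_1983-abinit-gene-0.0, with 5.34 at 12 h, 9.57 at 24 h (18.7-fold more), 9.85 at 48 h and 11.80 at 72 h NR. From 24 h to 48 h NR the cluster was lower by a median of 0.87, with the members at -0.34. Relative to 6 h N- the cluster's median stood at 0.37 at 72 h NR, and that of the members at 2.09.

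Members of cluster 4 had a narrower range than their cluster before the peak, with 9 of the 10 below the cluster's median range. The rule favours a narrow range, so this is no separate finding. Relative to 6 h N- the medians at 12 h NR were alike, -1.55 for members and -1.51 for the cluster genes. At 48 h NR both medians were near the early deprivation level, at -0.05 for members and 0.17 for the cluster genes. At 72 h NR the cluster was at -0.41 and the members at 1.85. During deprivation these members lay at -1.15 at 72 h N-, against -2.06 for the cluster, and all 10 were above the cluster's median difference. The rule holds 6 h N- more than 1 below 72 h NR. It can thereby favour a small fall from 6 h N-, so this too is no separate finding. From 72 h N- to 12 h NR 4 of the 10 were lower and 0 higher, while in the cluster 24 genes were lower (5.74%) and 114 higher (27.3%). Over the whole set 16 members were lower and 0 higher across that interval, beside 27.2% and 29.2% of all genes (39.8% and 7.16% over clusters 2 to 4). The count depends on the scaling. With median centring 8 were lower (439 of all genes) and with centring on the upper quartile 25 (1097 of all genes). Highest in that difference was maker-nanno_1036-snap-gene-0.28 of cluster 4, a highly expressed gene at 12.53 and 12.80.

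Members of cluster 2 lay close to their cluster until 48 h NR. Their median relative to 6 h N- was 0.15 at 72 h N-, -2.15 at 6 h NR, -1.05 at 24 h NR and -0.96 at 48 h NR, beside -0.02, -2.39, -1.21 and -0.77 for the 401 genes of the cluster. At 72 h NR they were at 1.68 and the cluster at -0.41.

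At the end of deprivation, 72 h N-, 20 of the 32 members lay within 2-fold of their level at 6 h N-. Between 6 h and 72 h N- 12 members were lower and 0 higher (43.2% and 4.78% of all genes, 61.7% and 1.66% over clusters 2 to 4), and the median member differed by -0.49. The rule, which holds 6 h N- more than 1 below 72 h NR, can favour a small fall here as well. Centring, which removes a shift of -0.84 in the column median, gave 7 members higher and 2 lower around a median of 0.34. The direction of the set in deprivation thus depends on the scaling. Of all genes 738 were higher and 574 lower after centring, around a median of 0.14. The contig 1983 gene covered the widest range of the set here, with 9.74, 10.49, 8.48, 6.53 and 6.20 at the 5 times. An opposite course was that of snap_masked-nanno_763-abinit-gene-0.17 (cluster 3), whose 4.94 at 6 h N- and 5.94 at 72 h N- lie just within 2-fold. Between successive times, 1 member was lower at 12 h than at 6 h N- (the contig 58 gene), beside 1.65% of all genes. At 24 h than at 12 h N- 4 members were lower, beside 9.12%. At 48 h than at 24 h N- 2 were lower, beside 20.8%, and at 72 h than at 48 h N- 0 were, beside 9.92%. The most negative difference of that last step, -0.83, belonged to augustus_masked-nanno_1060-abinit-gene-0.3 of cluster 4. Higher members numbered 0 in each of these 4 steps as deposited, beside 1.69%, 1.93%, 0.0804% and 0.201% of all genes. After centring, 1 member was lower at 24 h than at 12 h N-, and 2 were higher and 1 lower at 48 h than at 24 h N-, where the median turned from -0.035 to 0.43. Of all genes, 60 were lower at the former step on that scale, and at the latter 38 were higher and 168 lower.

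At 6 h of resupply most of the set was lower than at the end of deprivation. Across that step 19 members were lower and 0 higher (22.7% and 28.8% of all genes), and the median member differed by -1.24. Over clusters 2 to 4 alone 33.2% were lower and 2.60% higher. After centring, with a shift of -0.33, 13 members were lower and 0 higher (452 and 834 of all genes). All 8 members of cluster 2 and 7 of the 10 of cluster 4 were among the 19, along with 4 of the 14 of cluster 3. Of all genes of these clusters, 91.5% (cluster 2), 25.8% (cluster 4) and 9.98% (cluster 3) were lower. The most negative difference of a member was that of augustus_masked-nanno_2948-abinit-gene-0.10 (cluster 2), at 9.25 before resupply and 5.87 after 6 h of it. Its later values were 6.01, 7.00, 7.04 and 10.96, the last 15.1-fold above the one before. The cluster 3 gene augustus_masked-nanno_7175-abinit-gene-0.0 had the most positive one, with 4.40 and 4.81, which is within 2-fold.

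Between 6 h and 12 h NR 31 of the 32 members stayed within 2-fold. Higher at 12 h was 1 member, augustus_masked-nanno_83-abinit-gene-0.4 of cluster 2 (5.81 and 6.81), and 0 were lower, beside 10.8% and 13.8% of all genes. The lowest value of the whole course lay at 12 h NR in 17 members and at 6 h NR in 11, together 28 of 32, and 57.3% of all genes had theirs at these 2 times.

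At 24 h NR 19 members were higher than at 12 h and 0 lower (49.8% and 10.2% of all genes, 73.2% and 1.36% over clusters 2 to 4). The median member differed by 1.19, and the column median of all genes by 1.76. Relative to that shift 713 of all genes were higher and 1166 lower, around a median of -0.78. Among members 4 were higher but 12 lower on that scale, around a median of -0.57. The direction of the set at this step thus depends on the scaling. The cluster 2 gene augustus_masked-nanno_659-abinit-gene-0.10 was among the higher ones, at 3.34 at 12 h NR and 6.74 at 24 h NR. The contig 825 gene had the most negative difference, with 5.22 and 4.41.

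From 24 h to 48 h NR members differed in direction. More than 2-fold higher were 7 members and lower 2 (8.04% and 20.0% of all genes), and the median member differed by 0.15. After centring, by a shift of -0.29, 11 were higher and 1 lower (378 and 278 of all genes). By sign alone, 19 members were above and 13 below their 24 h NR value, beside 64.5% of all genes below. Of the 13, 9 were cluster 3 genes, and 92.1% of all genes of cluster 3 were below. The deepest dip of a member was that of snap_masked-nanno_991-abinit-gene-0.14, at 10.28 at 24 h NR, 8.42 at 48 h NR and 11.60 at 72 h NR. For this gene 48 h NR was the lowest of its 10 values. In 8 members every successive time of resupply from 6 h to 72 h was higher than the one before, and 5 of these 8 were cluster 4 genes. The same was not counted over all genes or over cluster 4, so these 2 counts are a description only. From 12 h onward this held for 18 members, beside 177 of all genes. The rule fixes the last of these steps.

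At 48 h NR 21 of the 32 members (65.6%) differed from 6 h N- by no more than 2-fold, beside 74.6% of all genes. Lower were 7 and higher 4, beside 6.63% and 18.8% of all genes (9.70% and 5.85% over clusters 2 to 4). After centring 10 were lower and 3 higher (228 and 304 of all genes). The 4 higher members were all of cluster 3, where 9.52% of the genes were higher. The time point next below 72 h NR was a deprivation time in 16 members, most often 6 h N- with 9, and a resupply time in the other 16, which were 48 h NR in 9 and 24 h NR in 7. Of the 16 in deprivation, 13 were at 6 h or 12 h N-, 1 at 24 h and 2 at 72 h.

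Set against deprivation at the same hour as deposited, most members were below it at 6 h and 12 h of resupply, as were most genes of clusters 2 to 4. The median member was closer to it at 24 h and 48 h. At 6 h 26 members were lower in NR and 0 higher (59.0% and 30.0% of all genes, 86.8% and 0.296% over clusters 2 to 4), and the median member differed by -1.49. At 12 h the numbers were 22 and 0 (62.8% and 31.3%, 92.4% and 1.01% over clusters 2 to 4), and the median was -1.51. The widest gaps belonged to the contig 659 gene at 6 h (8.09 in N-, 3.75 in NR) and to the contig 1983 gene at 12 h (10.49 and 5.34), the narrowest to snap_masked-nanno_940-abinit-gene-0.10 at 6 h (7.20 and 6.89) and the contig 840 gene at 12 h (13.01 and 12.51). After centring, where the column medians differed by -1.17 and -1.45, 8 and 4 members were lower and 0 higher. The medians over members were then -0.33 and -0.06, so the size of this early difference depends on the scaling. Of all genes 730 and 808 were lower and 828 and 846 higher. At 24 h 6 members were higher, all of cluster 3, and 6 lower, of which 5 belonged to cluster 2. In these clusters 68.6% of all cluster 3 genes were higher and 60.1% of all cluster 2 genes lower. The median member differed by 0.28, beside 44.0% of all genes higher and 10.5% lower. At 48 h 8 members exceeded N- and 3 lay under it (47.9% and 8.40% of all genes), around a median of 0.34. Extremes at 24 h were the contig 272 gene (6.36 in N-, 8.27 in NR) and the contig 825 gene (6.31 and 4.41), and at 48 h the contig 1983 gene (6.53 and 9.85) and the contig 2948 gene (8.84 and 7.04). Centring gave 1 higher against 8 lower for the earlier of these hours and 3 against 6 for the later, around medians of -0.27 and -0.39, so the direction at these 2 hours turned with the scaling. Of all genes 554 were higher and 452 lower at 24 h after centring, and 542 and 456 at 48 h.

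At 72 h NR the contrasts belong to the rule, and only their sizes are described. The median member was 2.30 above 48 h NR, or 4.91-fold, while 5.46% of all genes were higher by more than 2-fold and 11.4% lower at that step. The column median of all genes was 0.14 lower at 72 h than at 48 h NR. The median member stood 1.86 above 6 h N- (9.20% of all genes were higher and 3.74% lower) and 2.56 above 72 h N- (47.2% and 7.87%). Leaving out a time point can only add genes. It added 14 for 24 h NR, 5 for 48 h NR, 1 each for 6 h N- and 72 h N-, and 0 for the others.

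The 9 time points that did not define the peak were also compared among members. Their range had a median of 2.09, from 1.09 to 5.15, against 3.07 over all genes, and 13 members stayed within 2 (11.6% of all genes did). A rule that asks for low values elsewhere favours a narrow range, so this is no separate finding. Over the same 9 time points the correlation between 2 members had a median of 0.60 over the 496 pairs and ran from -0.30 to 0.98, with 15 pairs below 0. The members are therefore alike in their last step by choice and less alike before it.

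The identifiers give the kind of gene model and the contig. Predictions by augustus on masked sequence made up 16 of the members (50.0%) and 35.7% of all genes, those by snap 9 (28.1%) and 29.5%, and models with the prefix maker 7 (21.9%) and 34.8%. Members lay on 28 contigs of the 1215 that carry called genes, and 4 contigs held 2 members each. The tables give no positions on the contigs, so whether such pairs are neighbours, overlapping predictions or parts of 1 transcript is not known here.

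On contig 5749 the called genes were 2, and both are members of cluster 4. The first, snap_masked-nanno_5749-abinit-gene-0.3, had 8.53, 8.04, 6.99, 6.96 and 6.47 in deprivation and 4.70, 5.13, 5.65, 8.36 and 10.99 in resupply. The second, snap_masked-nanno_5749-abinit-gene-0.5, had 5.76, 5.33, 4.36, 4.32 and 4.42, then 3.05, 3.42, 4.00, 5.83 and 8.60. Their profiles had a correlation of 0.98 over the 10 time points and of 0.98 without 72 h NR. In both, every time of resupply was higher than the one before.

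On contig 940 the pair was augustus_masked-nanno_940-abinit-gene-0.0 and snap_masked-nanno_940-abinit-gene-0.10, both of cluster 3 and again the only called genes there. The first held between 8.86 and 9.95 at 9 time points and stood at 11.70 at 72 h NR, and the second held between 6.50 and 7.69 and stood at 9.32. The correlation was 0.98, and 0.91 without 72 h NR. These were the flattest courses of the set before the peak, with ranges of 1.09 and 1.19.

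On contig 741 the pair fell into different clusters, snap_masked-nanno_741-abinit-gene-0.12 into cluster 3 and maker-nanno_741-augustus-gene-0.19 into cluster 2. Both were low at 12 h NR (3.12 and 7.84), higher at 24 h (4.83 and 10.24), lower at 48 h (4.49 and 9.15) and highest at 72 h (6.18 and 11.56). Without 72 h NR their correlation was 0.94. On contig 770, which carries 9 called genes, maker-nanno_770-snap-gene-0.80 (cluster 2, 11.82 at 72 h NR) and snap_masked-nanno_770-abinit-gene-0.50 (cluster 4, 6.45) were less alike, with 0.68 without 72 h NR.

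**Figure D5:**
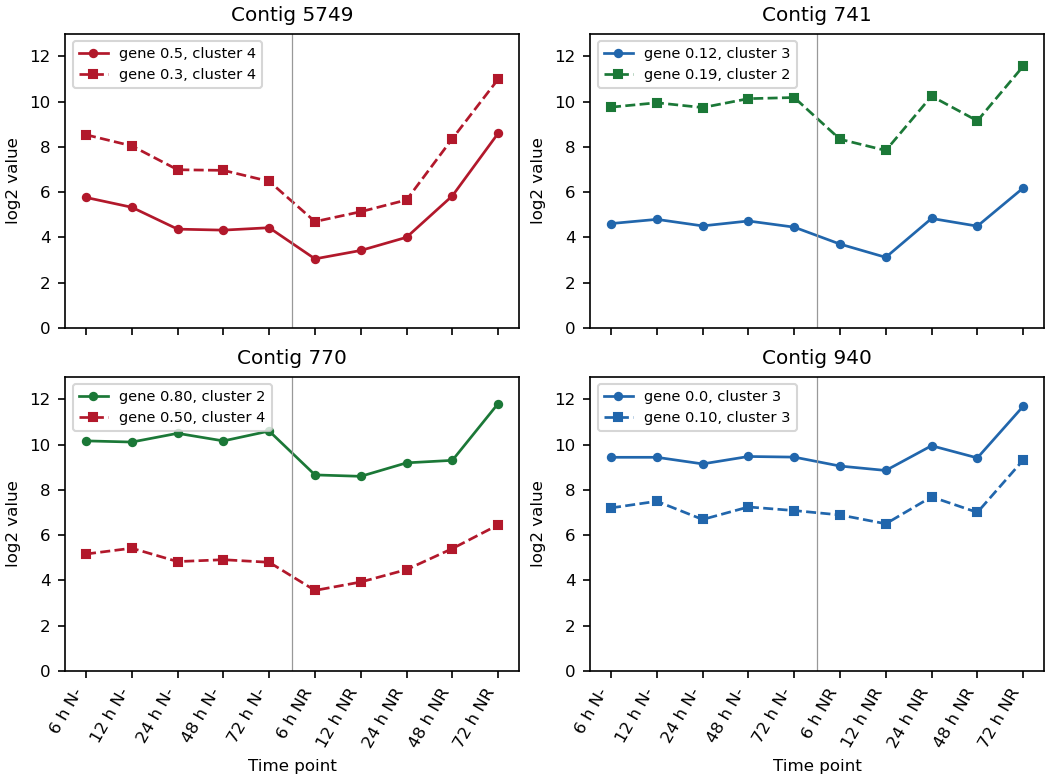
Each panel shows the log2 values over the 10 time points of the 2 members on 1 contig, coloured by cluster (green 2, blue 3, red 4). The lines rise and fall together on contigs 5749, 940 and 741, with correlations of 0.98, 0.91 and 0.94 without 72 h NR, and less so on contig 770. The gap between the 2 lines varies, from 1.65 to 2.77 on contig 5749.

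The same 28 contigs held 54 other called genes, whose margins are at most 1 by the rule. Of these, 4 were higher at 72 h than at 48 h NR by more than 2-fold (7.41%, beside 5.46% of all genes). The highest value lay at 72 h NR in 5 (9.26%, beside 4.34%), the widest of them by 0.61. Both shares of all genes count the members, which the 54 leave out, so these comparisons are not like for like. The median of the 54 was 0.35 lower at 72 h than at 48 h NR, close to the 0.32 lower of all genes.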

How the data were processed

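RNA of 44 libraries was sequenced as single-end reads. Per the labels' protocols, reads were trimmed with Trimmomatic 0.32, mapped by STAR 2.3.0e, keeping unique matches to the assembly of the strain, and counted over exons with HTSeq 0.6.1. Genes were called with DESeq2 and split by k-means into 4 clusters, per the labels' protocols. Unique mapping undercounts near-identical genes. The deposited tables hold 1 log2 value per called gene and time point. How the authors scaled the libraries and joined those of a time point (not given in the sources used here) is unknown. The authors' row numbers were not used.

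Differences, medians and correlations were computed with Python 3.11.15, numpy 2.4.6 and pandas 2.3.3. The code that applies the rule was tested on simulated data with planted peaks. Because the tables hold no replicate values, no statistical test was made. Columns centred on the median or upper quartile of all genes, other thresholds, a level filter and omitted time points were tried. Members, lists and comparisons were chosen with earlier results of these data known. Genes are named where they have the 2 widest margins in a cluster, lie nearest the threshold, share a contig with another member or are extreme in a comparison.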

Additional observations from a re-analysis of the deposited data

Results flagged for a closer look

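The contrast of resupply with deprivation had opposite directions at different hours in some members, and the difference between the hours was not tested. In 7 of the 32 members NR lay under N- by over 2-fold at 6 h but exceeded it by over 2-fold at 48 h (21.9%, beside 34.7% of all genes). The same turn was seen between 12 h and 48 h in 6 members (18.8%, beside 35.3%) and between 12 h and 24 h in 4 members (12.5%, beside 23.4%). Between 24 h and 48 h it was seen in 1 member (3.12%, beside 0.161%), snap_masked-nanno_5749-abinit-gene-0.3, with 5.65 in NR and 6.99 in N- at 24 h and with 8.36 and 6.96 at 48 h. The opposite turn was seen in 0 members, beside at most 1.81% of all genes. These counts depend on the scaling. With median centring they were 1 (6 h to 48 h), 1 (12 h to 48 h), 0 (12 h to 24 h) and 0 (24 h to 48 h), and with upper quartile centring 3, 3, 0 and 0. In the same order, the shares of all genes were 12.1%, 11.2%, 8.40% and 0.723% with median centring. With upper quartile centring these shares were 18.8%, 17.2%, 6.07% and 2.45%.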

How the results depend on the processing

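The tables limit these results to 1 value per time point, so depth and replicate spread are unknown and no replicate could be left out. No paired analysis was possible because the columns carry no replicate number. Centring on the median kept 20 genes in the set and centring on the upper quartile 27, of which 24 are among the 32. A margin of 0.5 gave 54 genes and one of 1.5 gave 12. The cause of the moves below was not tested, beyond what fewer members or another threshold bring by construction.

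With median centring the count for 72 h against 6 h N- was 7 higher and 2 lower, for 24 h against 12 h NR 4 higher and 12 lower, and for 48 h against 24 h NR 11 higher and 1 lower. For NR against N- it was 8 lower at 6 h, 4 lower at 12 h, 1 higher at 24 h, and for 48 h 3 higher with 6 lower. Medians turned to 0.34 (72 h against 6 h N-), 0.024 (12 h against 6 h NR), -0.57 (24 h against 12 h NR), -0.27 (NR against N- at 24 h) and -0.39 (48 h). With upper quartile centring the counts were 3 higher and 6 lower for 72 h against 6 h N-, 7 higher and 1 lower for 24 h against 12 h NR, and 12 higher and 1 lower for 48 h against 24 h NR. For NR against N- they were 0 higher with 13 lower (24 h) and 3 higher with 6 lower (48 h), and medians turned to 0.15 (12 h against 6 h NR), -0.70 (24 h) and -0.36 (48 h). Of all genes, upper quartile centring gave 377 higher and 820 lower for 72 h against 6 h N-. It gave 956 and 772 for 24 h against 12 h NR, and 540 and 134 for 48 h against 24 h NR. For NR against N- it gave 268 and 667 (24 h) and 553 and 444 (48 h).

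With a called difference of 0.5 there were 3 higher for 72 h against 6 h N-, 5 higher and 4 lower for 12 h against 6 h NR, 1 lower for 24 h against 12 h NR, 12 higher and 6 lower for 48 h against 24 h NR, and for NR against N- 12 higher at 24 h and 5 lower at 48 h. With 1.5 there were 5 lower for 72 h against 6 h N-, 11 lower for 6 h NR against 72 h N-, 0 higher for 12 h against 6 h NR, 3 higher and 1 lower for 48 h against 24 h NR, and for NR against N- 16 lower (6 h), 1 higher with 2 lower (24 h) and 1 lower (48 h).

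The 12 members with margins over 1.5 gave 4 lower for 72 h against 6 h N-, 8 lower for 6 h NR against 72 h N-, 0 higher for 12 h against 6 h NR, 5 higher for 24 h against 12 h NR and 0 lower for 48 h against 24 h NR. For NR against N- they gave 9 lower at 6 h, 7 lower at 12 h, 2 higher with 3 lower for 24 h, and 4 higher with 1 lower for 48 h. The 23 members with a mean of at least 6 gave 3 higher for 48 h against 24 h NR and 4 higher for NR against N- at 48 h. The other 95 recomputed counts were equal to the first or stayed within 1.5 times of it. Omitted time points, which cannot lower the number of genes found, were left aside. Many of the 95 were 0 in both settings. A count of 0 cannot rise with a higher threshold or with fewer members, so the 95 are no measure of stability.

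For 12 h NR against 72 h N- the members lower were 8 with median centring, 25 with upper quartile centring, 25 at a difference of 0.5, 8 at 1.5, and 7 of the 12 with wide margins. For 24 h against 12 h N- the lower were 1 with either centring, 14 at 0.5 (with 1 higher), 1 at 1.5 and 2 of the 12. For 48 h against 24 h N- there were 2 higher and 1 lower with median centring, 1 lower with upper quartile centring, 3 higher and 4 lower at 0.5, 1 lower at 1.5, 1 lower of the 23 and 1 of the 12. Its median turned to 0.43, 0.20 with upper quartile centring and 0.27 for the 12. At 0.5 there were 1 higher and 3 lower for 12 h against 6 h N-, and 1 higher and 3 lower for 72 h against 48 h N-, and at 1.5 0 lower for the former. The median of 72 h against 48 h N- turned to 0.29, 0.12 and 0.010 in the same 3 settings.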

Other observations

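Genes with the opposite shape were looked for in the same tables. Where 32 genes stood above all other time points at 72 h NR by more than 2-fold, 0 of the 2489 stood below all of them by that much. Such lows were found for 110 of the 2489 genes at 6 h NR, 121 at 12 h NR, 8 at 24 h NR and 4 at 72 h N-.

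Without the 24 h NR column 14 more genes met the rule, all of cluster 3. Peaks at both 24 h and 72 h NR, with 48 h NR below 24 h NR, follow from this selection. The dip at 48 h NR had a median of 1.56 on the log2 scale. At 72 h NR 5 of the 14 were above and 9 below their 24 h level (median difference -0.18). The 5 genes added without the 48 h NR column were 4 of cluster 2 and 1 of cluster 4. Their selection likewise places 48 h NR above 24 h NR, here by a median of 1.53. They went on upward from 48 h to 72 h NR by 0.22 to 0.89, a rise that the selection caps at 1.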
